A study of Mus musculus with 8 samples.

Results

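The genes of intracellular vesicle traffic described here are 110 genes, read by 203 of the 22626 probe sets tested on the array (12393 genes have a probe set that names them alone). They were chosen by symbol, though with earlier results of these data known, Rab40c and Use1 among them. The rule takes symbols that start with Rab, Arf or Vps and a digit, the coatomer genes that start with Cop, symbols that start with Sec2 or Snap2, and Use1. Another 2 probe sets name Vps25 together with Ramp2 and were left out. The letters of the rule also caught genes with other work, such as Vps72, a subunit of a histone-exchange complex, Rab26os, an opposite-strand transcript, Rab5if and Vps9d1. Without these, 106 genes remained.

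Cells move membrane and cargo between compartments in small carriers. COPII coats bud carriers from the endoplasmic reticulum (ER), COPI coats return material from the Golgi, Arf GTPases recruit coats, and Rab GTPases mark each compartment and call in the tethers and motors that bring a carrier to it. SNARE proteins then fuse the membranes, while Vps proteins form the retromer, HOPS, GARP and ESCRT complexes that sort cargo on endosomes and lysosomes. Lens fiber cells elongate greatly, insert large amounts of membrane protein and later degrade their ER, Golgi and nuclei.

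RNA was measured in whole lenses dissected at embryonic day 15.5 (E15.5). The 4 dnBrg1 lens samples came from transgenic embryos in which the αA-crystallin promoter drives dominant-negative Brg1 in lens fiber cells of 1 transgenic line. Brg1 is the ATPase of SWI/SNF complexes, which remodel chromatin. The 4 wild-type samples came from littermates without the transgene. The strain is labelled a mixed background for both groups. Affymetrix mouse expression arrays were used, 1 per sample, so the precision is limited by 4 arrays per group. Values are log2 intensities, a change is the mean of dnBrg1 minus the mean of wild type with its standard error (SE), and a probe set was called at a limma adjusted p under 0.05. Several probe sets can read different stretches of the same gene, and their levels are not compared with each other.

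Of the 2 probe sets of Smarca4, which encodes Brg1, 1426805_at was 5.1-fold higher in dnBrg1 lenses (log2 change 2.35 ± 0.21, adjusted p = 4.81e-05), and 1426804_at changed by -0.24 ± 0.11 (adjusted p = 0.116). Of 9 measured lens fiber cell markers, 2 were higher (Bfsp1 by 1.54 and Gja3 by 1.53, adjusted p = 8.50e-05 and 0.000237), Crygd was lower (-0.34, adjusted p = 0.0176), and 6, Cryaa and Mip among them, were not called, with a median over the 9 of -0.030. Their summed linear intensity was 135798 to 146644 in dnBrg1 samples, against 130560 to 138969 in wild-type samples. The array controls that read the 3' and 5' ends of Gapdh and β-actin separated the groups. Their mean 3' minus 5' log2 difference was 0.592 to 0.649 in dnBrg1 samples, against 1.43 (replicate 3) to 2.66 (replicate 2) in wild-type samples. Genotype and this RNA measure cannot be told apart fully in these 8 samples, so the larger changes are also given with the control difference as a covariate. With this covariate Smarca4 1426805_at changed by 1.26 and was not called (adjusted p = 0.0661). In RNA from whole lenses, fewer cells of a type and less RNA per cell cannot be told apart.

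Rab40c and Use1, which changed strongly in opposite directions, are shown first with the sequence in front of their start sites, together with the paralogs Sec24c and Sec24d, which moved in opposite directions. RefSeq sequences of the 250 bases upstream of each start are printed 5′ to 3′ in the direction of transcription (assembly GRCm38.p6). Capitals mark the CCAAT box, written as ATTGG where it lies on the other strand. The windows are chr17:25919715-25919964 on the minus strand for Rab40c and, on the plus strand, chr8:71366598-71366847 for Use1, chr14:20674071-20674320 for Sec24c and chr3:123267246-123267495 for Sec24d.
Rab40c: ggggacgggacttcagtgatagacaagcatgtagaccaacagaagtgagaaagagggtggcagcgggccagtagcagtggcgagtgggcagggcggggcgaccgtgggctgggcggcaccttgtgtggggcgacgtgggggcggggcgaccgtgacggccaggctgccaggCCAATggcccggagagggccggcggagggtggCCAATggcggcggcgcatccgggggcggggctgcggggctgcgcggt
Use1: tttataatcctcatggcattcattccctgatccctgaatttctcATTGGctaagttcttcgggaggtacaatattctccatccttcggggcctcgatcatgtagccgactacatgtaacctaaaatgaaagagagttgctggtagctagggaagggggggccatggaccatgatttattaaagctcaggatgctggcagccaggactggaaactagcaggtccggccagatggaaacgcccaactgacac
Sec24c: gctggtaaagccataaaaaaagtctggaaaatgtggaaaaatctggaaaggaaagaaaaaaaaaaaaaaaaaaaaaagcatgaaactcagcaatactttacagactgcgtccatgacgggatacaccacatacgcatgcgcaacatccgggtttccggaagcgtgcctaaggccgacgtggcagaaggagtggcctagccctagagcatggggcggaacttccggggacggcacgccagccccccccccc
Sec24d: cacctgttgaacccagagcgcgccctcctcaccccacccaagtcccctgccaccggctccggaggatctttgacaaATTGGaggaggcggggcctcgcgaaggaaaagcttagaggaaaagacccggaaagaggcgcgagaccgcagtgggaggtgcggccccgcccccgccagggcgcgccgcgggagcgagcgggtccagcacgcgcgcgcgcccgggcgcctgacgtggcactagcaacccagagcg
A second Use1 window, further along the plus strand, held none of the motifs searched. Rab40c held 2 CCAAT boxes, 79 and 47 bases from its start. Use1 and Sec24d held 1 each on the other strand, at 206 and 174 bases, and Sec24c held none. Searched on both strands, CCAAT was in 39 of 114 member windows (34.2%, 89 genes), against 33.8% of all 32851 windows. The E-box CACGTG was in 13 of the 114 member windows (11.4%), against 6.02% of all windows. The ER stress response element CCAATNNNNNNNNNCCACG, which contains the CCAAT letters, was in none of the member windows and in 0.113% of all windows. By the call on the brightest probe set, CCAAT was in 10 of 22 windows of genes called higher, 12 of 31 of genes called lower and 17 of 61 of the others. These are matches of letters, not shown sites of binding.

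Rab40c was the most strongly downregulated member. It encodes an atypical Rab with a SOCS box, through which the human protein joins a cullin ubiquitin ligase. Probe set 1424331_at read 7.26, 7.13, 7.24 and 7.47 in dnBrg1 lenses, against 9.74, 10.12, 9.18 and 10.18 in wild-type lenses. The groups were far apart, and the lowest wild-type sample (replicate 3) lay above every dnBrg1 sample. The change was -2.53 ± 0.21 (5.77-fold lower, adjusted p = 3.24e-05), and with the control difference as a covariate it was -1.41 (adjusted p = 0.0422). The second Rab40c probe set, 1424332_at, changed by -0.31 ± 0.13 (adjusted p = 0.0802), so the gene's 2 probe sets did not give the same size of change. Its paralog Rab40b was not called on either probe set, with changes of 0.06 and 0.06.

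Use1, a SNARE of the ER that receives carriers returning from the Golgi, was upregulated on both of its probe sets. 1451130_at read 12.12, 11.98, 12.36 and 12.33 in dnBrg1 lenses, against 10.32, 9.93, 10.78 and 9.84 in wild-type lenses. All 4 dnBrg1 samples lay above all wild-type samples, of which replicate 3 was the highest. The change was 1.98 ± 0.20 (3.95-fold higher, adjusted p = 9.22e-05). 1423817_s_at, whose suffix marks a match to several transcripts, read 11.50, 11.34, 11.78 and 11.52 in dnBrg1 lenses, against 10.43, 9.96, 10.66 and 9.70 in wild-type lenses, a change of 1.35 ± 0.21 (adjusted p = 0.000786) with the same wild-type sample nearest to the dnBrg1 group. With the control covariate the changes were 0.91 and 0.37, and neither passed (adjusted p = 0.128 and 0.596).

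The partners of Use1 did not move as a block. Bnip1, a second SNARE of the same ER complex, rose by 1.36 ± 0.14 (adjusted p = 0.000101), with 9.58, 9.50, 9.65 and 9.57 in dnBrg1 lenses, against 8.17, 7.86, 8.55 and 8.27 in wild-type lenses. Here too the groups did not overlap. Sec22b, the SNARE on the incoming carrier, was called lower on 1415766_at (-0.74 ± 0.11, adjusted p = 0.000738) and changed by 0.15 ± 0.14 on 1449063_at (adjusted p = 0.432). The complex's syntaxin Stx18 changed by 0.09 ± 0.20 (adjusted p = 0.723). Scfd1, which binds syntaxins of this step, rose by 0.59 ± 0.091 (adjusted p = 0.000835). Zw10, a subunit of the tether at the ER, was called lower (-0.79 ± 0.23, adjusted p = 0.0236), but its groups overlapped. Zw10's adjusted p was 0.0504 to 0.0625 without dnBrg1 1, dnBrg1 3, dnBrg1 4, wild type 1, wild type 2 or wild type 4, and its change was 0.59 with the control covariate. With that covariate Bnip1, Sec22b 1415766_at and Scfd1 changed by 0.64, -0.76 and 0.74.

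**Figure D1:**
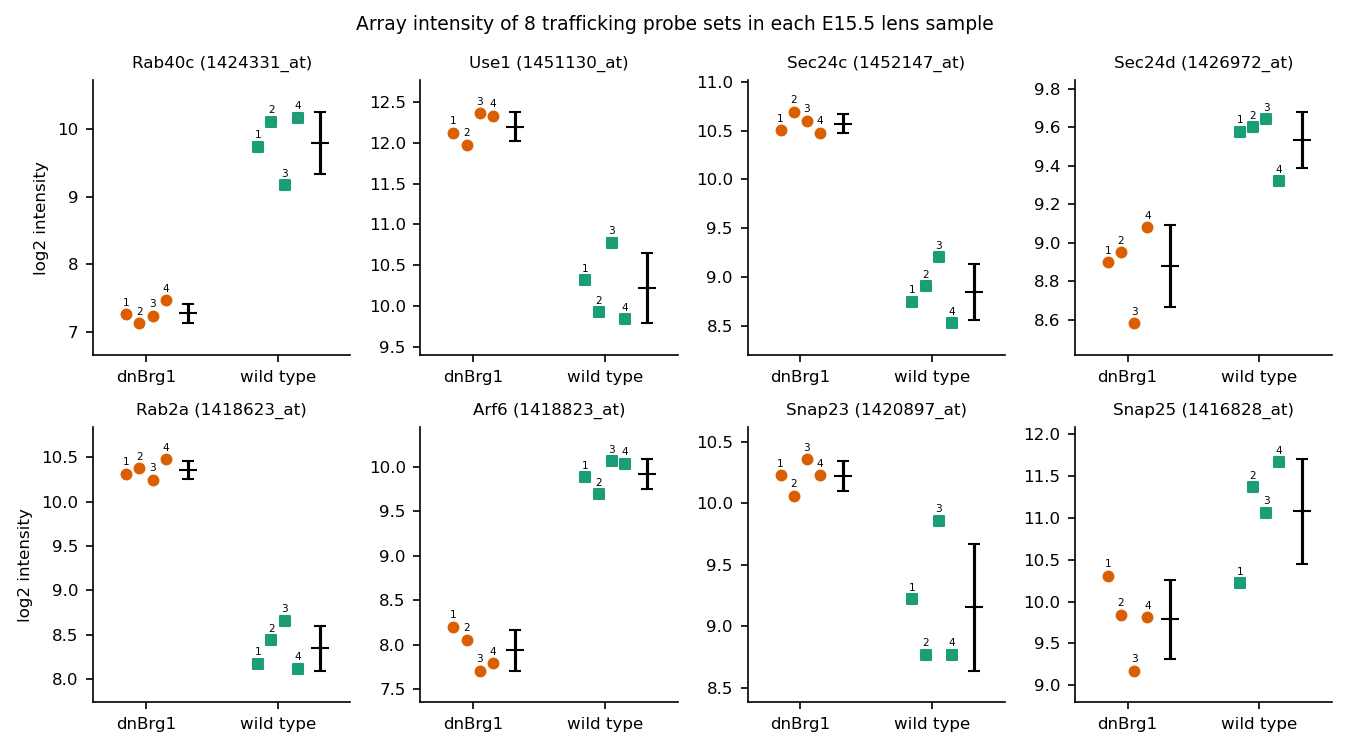
Log2 array intensity (y axis, a separate scale in each panel) of 8 probe sets in the 4 dnBrg1 samples (circles, left) and the 4 wild-type samples (squares, right), numbered by replicate, with the mean and SD as bars. In all panels except that of Snap25 the dnBrg1 and wild-type samples do not overlap. For Rab40c, Use1, Sec24c, Rab2a and Snap23 wild-type replicate 3 lies nearest to the dnBrg1 group.

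Over the 203 member probe sets, 49 were called higher and 45 lower in dnBrg1 lenses (24.1% and 22.2%), against 19.8% and 21% of all probe sets. With the brightest probe set standing for each gene, 24 genes were higher and 31 lower (21.8% and 28.2% of 110), against 17.5% and 23.3% of all genes. These shares are near the background, and the members as a whole had no common direction. Their median change was 0.06 over probe sets and -0.03 over genes, beside -0.08 and -0.11 for all probe sets and all genes. Among the called members 21 probe sets were at least 2-fold higher and 13 at least 2-fold lower, a split not compared with all probe sets. The groups did not overlap in 94 member probe sets (46.3%), against 40.1% of all probe sets. The median SD within a group was 0.127 in dnBrg1 samples and 0.224 in wild-type samples. Wild-type replicate 3 had the smallest 3' minus 5' difference among its group and was the wild-type array nearest to the dnBrg1 mean in 48 of the 94 called member probe sets (51.1%, against 50.4% of all called probe sets). Without it, 20 further member probe sets were called and 4 lost their call.

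**Figure D2:**
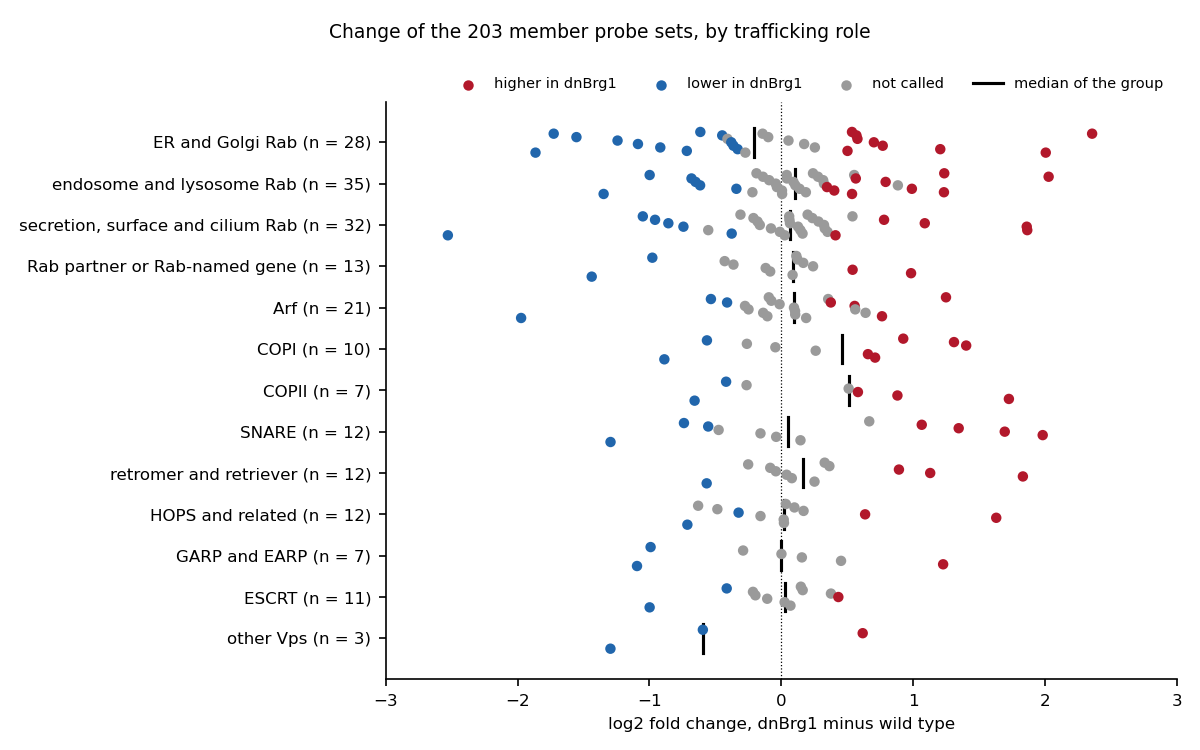
Log2 change, dnBrg1 minus wild type (x axis), of the 203 member probe sets in 13 role groups (rows), 1 point per probe set, coloured by call, with the group's median as a bar. Every role group has called probe sets on both sides of 0, and the COPI and COPII groups have the highest medians, 0.46 and 0.51.

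Coat genes of the early secretory pathway split between related genes. Of the 6 COPII genes, 3 were higher and 2 lower, and of the 8 coatomer (COPI) genes, 3 were higher and 2 lower on the brightest probe set. Over all genes 17.5% were higher and 23.3% lower. Sec24 proteins choose the cargo of COPII carriers. Sec24c read 10.51, 10.69, 10.60 and 10.48 in dnBrg1 lenses, against 8.74, 8.90, 9.20 and 8.52 in wild-type lenses, a change of 1.73 ± 0.15 (3.31-fold higher, adjusted p = 3.63e-05) with every dnBrg1 sample above every wild-type sample. Its paralog Sec24d read 8.90, 8.95, 8.58 and 9.08 in dnBrg1 lenses, against 9.58, 9.60, 9.64 and 9.32 in wild-type lenses, a change of -0.66 ± 0.13 (adjusted p = 0.00354) in the opposite direction, again without overlap. Sec24b rose on 1426848_at (0.88 ± 0.11, adjusted p = 0.00024) and changed by 0.51 ± 0.25 on 1426849_at (adjusted p = 0.136). With the control covariate Sec24c, Sec24b and Sec24d changed by 1.35, 0.89 and -0.76, which kept the directions without passing the test (adjusted p = 0.0521, 0.0787 and 0.193).

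Sec23 proteins form the inner layer of the same coat with Sec24. Sec23a fell by a small amount (-0.42 ± 0.12, adjusted p = 0.0237), with 12.18, 12.19, 12.06 and 12.03 in dnBrg1 lenses, against 12.56, 12.25, 12.79 and 12.53 in wild-type lenses. The dnBrg1 samples lay just below wild-type replicate 2, the lowest of its group. Sec23a's adjusted p was 0.0536 to 0.0656 without dnBrg1 3, dnBrg1 4 or wild type 1, while with the control covariate its change was -0.99 (adjusted p = 0.0327). Sec23b changed by -0.26 ± 0.14 (adjusted p = 0.169, and 0.0181 without wild type 3). Sec23ip, which binds Sec23 at ER exit sites, rose by 0.58 ± 0.092 (adjusted p = 0.00094). From the rest of the coat, Sec13 and Sec31a of the outer layer rose by 0.89 and 0.45, the GTPase Sar1b rose by 0.73, and Sar1a changed by 0.02 (adjusted p = 0.00383, 0.0163, 0.00284 and 0.887). With the covariate Sec13 changed by 0.16 (adjusted p = 0.836), whereas Sar1b, at 1.32, and Sec31a, also higher, were still called (adjusted p = 0.0293 and 0.0346).

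In coatomer, the β subunit genes Copb1 and Copb2 and the γ subunit genes Copg1 and Copg2 each had a probe set that was called higher. Copb2 1452102_at read 10.97, 10.98, 10.93 and 11.00 in dnBrg1 lenses, against 9.57, 9.09, 9.97 and 9.65 in wild-type lenses, the largest coatomer increase (1.40 ± 0.17, adjusted p = 0.000198), with no overlap and dnBrg1 samples close together. Its other probe set, 1456175_a_at, changed by -0.04 ± 0.14 (adjusted p = 0.823). Copg1 1415670_at read 10.13, 10.32, 10.10 and 10.14 in dnBrg1 lenses, against 8.98, 9.04, 8.92 and 8.52 in wild-type lenses, a rise of 1.31 ± 0.13 (adjusted p = 8.23e-05), while 1416017_at, the brighter of the pair, changed by -0.26 ± 0.15 (adjusted p = 0.186). Copg2 rose by 0.93 ± 0.12, Copb1 by 0.71 ± 0.13 and Cope, the ε subunit, by 0.66 ± 0.18 (adjusted p = 0.000373, 0.00248 and 0.0163). The ζ subunit genes went the other way. Copz2 read 10.05, 9.87, 10.04 and 10.06 in dnBrg1 lenses, against 10.91, 10.99, 10.59 and 11.06 in wild-type lenses, a fall of -0.89 ± 0.12 (adjusted p = 0.000433), and Copz1 fell by -0.56 ± 0.11 (adjusted p = 0.00311). The α subunit gene Copa changed by 0.26 ± 0.20 without the covariate and 1.46 with it (adjusted p = 0.32 and 0.0133). Arcn1, the δ subunit, rose by 0.49 ± 0.10 (adjusted p = 0.00416). With the covariate Copg1, Copg2 and Copb1 changed by 1.33, 1.05 and 1.06, and Copb2, Copz2, Copz1 and Cope by 0.48, -0.42, -0.15 and -0.11. None of these 7 passed with it.

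Rab GTPases numbered 50 genes, of which 9 were higher, 16 lower and 25 not called on the brightest probe set. Among the 13 Rab genes of the ER and Golgi, 2 were higher and 7 lower. The background for both counts was 17.5% higher and 23.3% lower over all genes. The Rab2 pair, which acts between the ER and the Golgi, split. Rab2a had 7 probe sets, of which 5 were called higher. 1418623_at read 10.31, 10.37, 10.25 and 10.48 in dnBrg1 lenses, against 8.17, 8.44, 8.66 and 8.12 in wild-type lenses, a rise of 2.01 ± 0.14 (4.02-fold higher, adjusted p = 1.57e-05), and 1418621_at read 10.73, 10.80, 10.69 and 10.72 in dnBrg1 lenses, against 9.43, 9.40, 9.63 and 9.64 in wild-type lenses, a rise of 1.21 ± 0.099 (adjusted p = 3.17e-05). The groups were well apart on both, and both stayed called with the control covariate, at 1.75 and 1.01 (adjusted p = 0.0242 and 0.0345). The brighter Rab2a probe sets 1418622_at, 1419946_s_at and 1419945_s_at rose less, by 0.70, 0.57 and 0.50 (adjusted p = 0.00319, 0.00239 and 0.00659). The dimmest, 1436477_x_at, was called lower (-0.33 ± 0.11, adjusted p = 0.0328), but may cross-hybridize. Its adjusted p was 0.0517 to 0.0821 without dnBrg1 1, dnBrg1 2, dnBrg1 3, dnBrg1 4, wild type 1, wild type 2 or wild type 3. The remaining probe set, 1449676_at, changed by 0.05 without a call. With the covariate 1418622_at changed by 0.0099 (adjusted p = 0.985).

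Rab2b was called in both directions. 1452667_at, its brightest probe set, read 9.94, 9.91, 10.04 and 10.07 in dnBrg1 lenses, against 10.94, 11.50, 10.68 and 11.19 in wild-type lenses, a fall of -1.09 ± 0.17 (adjusted p = 0.000752), and 1452668_x_at and 1428115_a_at fell by -0.72 and -0.61 (adjusted p = 0.00125 and 0.00142). A pair of dim probe sets went the other way. 1455857_a_at read 6.60, 6.77, 6.30 and 6.25 in dnBrg1 lenses, against 4.44, 3.84, 4.74 and 3.47 in wild-type lenses, a rise of 2.36 ± 0.26 (adjusted p = 0.000139), and 1436923_at rose by 0.77 ± 0.15 (adjusted p = 0.00307). None of the 5 overlapped between groups, and with the covariate none was called (1452667_at changed by -0.14 and 1455857_a_at by 1.17).

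Among the other ER and Golgi Rabs the falls were largest in Rab33a, Rab6b, Rab34 and Rab43. Rab6b, a brain-enriched form of the Golgi Rab6, read 8.41, 8.09, 8.23 and 8.49 in dnBrg1 lenses, against 9.66, 10.70, 9.34 and 10.42 in wild-type lenses, a fall of -1.73 ± 0.28 (3.31-fold lower, adjusted p = 0.00103) that shrank to -0.054 with the control covariate. Rab33a read 5.37, 5.07, 5.34 and 4.69 in dnBrg1 lenses, against 6.52, 7.40, 6.44 and 7.58 in wild-type lenses, a fall of -1.86 ± 0.28 (adjusted p = 0.000689), and both sets of samples were dim. In Rab6b and Rab33a alike, wild-type replicates 2 and 4 were the highest arrays and the dnBrg1 samples lay below all wild-type samples. Rab34 fell on 1416590_a_at (-1.55 ± 0.22, adjusted p = 0.000516) but not on 1416591_at (-0.10 ± 0.20, adjusted p = 0.712). Rab43 fell on 1425333_at by -1.24 ± 0.18 and Rab30 on its only probe set by -0.92 ± 0.21 (adjusted p = 0.000516 and 0.00636). Both of these probe sets lay below the median intensity of all probe sets. Rab43 1451670_at changed by -0.41 without a call (adjusted p = 0.119, and 0.0486 without wild type 4). With the covariate Rab33a, Rab34 1416590_a_at, Rab43 1425333_at and Rab30 changed by -0.52, -0.38, -0.33 and -0.58, none of them called (adjusted p = 0.581, 0.55, 0.513 and 0.539).

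Rab6a, the widely expressed form, fell less, by -0.45 ± 0.11 on 1448305_at (adjusted p = 0.00995) and by -0.36 ± 0.12 on 1448304_a_at (adjusted p = 0.0368, and 0.0658 to 0.0993 without dnBrg1 1, dnBrg1 2, dnBrg1 3, wild type 3 or wild type 4). Rab33b, which acts at the Golgi and in autophagy, fell by -0.38 ± 0.11 (adjusted p = 0.0215, and 0.05 to 0.0611 without dnBrg1 2, dnBrg1 3 or wild type 4). Rab18, found on the ER and lipid droplets, rose by 0.54 ± 0.13 on 1420900_a_at (adjusted p = 0.00748) and by 0.58 ± 0.18 on 1420899_at (adjusted p = 0.0309, and 0.0578 to 0.0803 without dnBrg1 1, dnBrg1 2, dnBrg1 4, wild type 1 or wild type 4). Rab1a and Rab1b, which serve the step from the ER to the Golgi in most cells, were not called, with changes of -0.14 and 0.26 for Rab1a and 0.17 for Rab1b. The dimmer Rab1a probe set 1448210_at was called without wild type 3 (adjusted p = 0.0209). Rab29, at the Golgi, changed by -0.27 (adjusted p = 0.153, and 0.0111 without wild type 3).

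**Figure D3:**
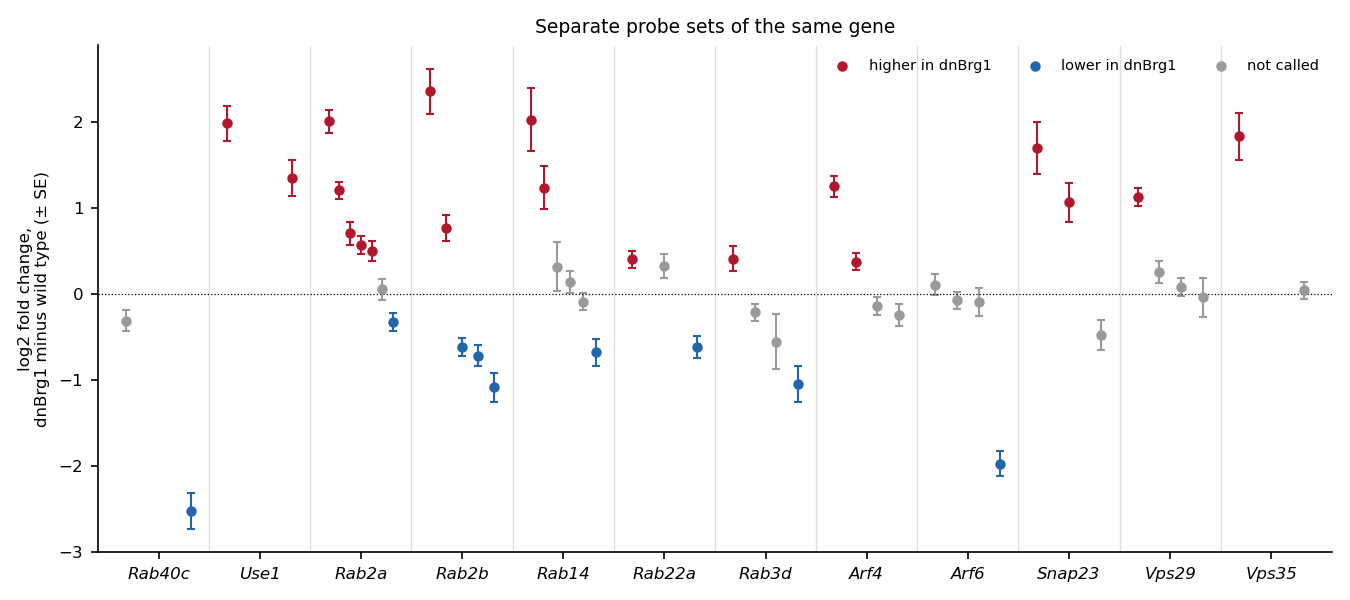
Log2 change, dnBrg1 minus wild type, with its SE (y axis), of each probe set of 12 genes (x axis), coloured by call and ordered by size within a gene. Use1 rose on both probe sets, while Rab2a, Rab2b, Rab14, Rab22a and Rab3d have calls on both sides of 0 and Rab40c, Arf6 and Vps35 have 1 called probe set each.

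Endosome and lysosome Rabs comprised 20 genes, of which 5 were higher and 4 lower, against 17.5% and 23.3% of all genes. All 3 Rab5 genes, which mark early endosomes, were upregulated, each on its only probe set. Rab5a read 11.54, 11.28, 11.13 and 11.15 in dnBrg1 lenses, against 10.79, 10.45, 10.88 and 10.72 in wild-type lenses, a rise of 0.57 ± 0.14 (adjusted p = 0.00849), and Rab5c read 10.93, 10.92, 10.91 and 10.98 in dnBrg1 lenses, against 10.57, 10.14, 10.48 and 10.39 in wild-type lenses, a rise of 0.54 ± 0.11 (adjusted p = 0.00425). Rab5b rose by 1.23 ± 0.28 on a dim probe set (adjusted p = 0.00607). In none of the 3 did the groups overlap, yet with the control covariate the changes were 0.10, 0.13 and -0.097, and none passed. Rab24, linked to autophagy, rose on both probe sets, by 0.99 ± 0.11 on 1421872_at and 0.79 ± 0.16 on 1421873_s_at (adjusted p = 0.000147 and 0.00384). With the covariate these were 0.55 and -0.023, neither called. Rab9, which returns receptors from late endosomes to the Golgi, rose by 0.35 ± 0.10 (adjusted p = 0.0223, and 0.0546 to 0.0674 without dnBrg1 1 or dnBrg1 2).

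Rab21, which directs integrin uptake, fell on 1437742_at, with 9.91, 9.96, 9.60 and 9.86 in dnBrg1 lenses, against 10.77, 10.49, 11.00 and 11.06 in wild-type lenses. The change of -0.998 ± 0.15 (2-fold lower, adjusted p = 0.000615) stayed called with the control covariate (-1.45, adjusted p = 0.0399), whereas 1437741_at changed by 0.01 ± 0.086 (adjusted p = 0.963). Rab4a, of rapid recycling, fell on 1449048_s_at (-1.35 ± 0.20, adjusted p = 0.00062) and changed by 0.11 ± 0.15 on 1418341_at (adjusted p = 0.582). With the covariate the Rab4a fall was -0.25 (adjusted p = 0.633). Rab31 fell on 1431691_a_at by -0.65 ± 0.13 (adjusted p = 0.00416) and on 1416165_at by -0.34 ± 0.12 (adjusted p = 0.0415, and 0.0581 to 0.116 without dnBrg1 1, dnBrg1 2, dnBrg1 4, wild type 2, wild type 3 or wild type 4). Rab22a fell on its brightest probe set, 1451379_at, by -0.62 ± 0.13 and rose on 1424503_at by 0.40 ± 0.099 (adjusted p = 0.0041 and 0.01).

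Rab14, which acts between the Golgi and endosomes, differed widely between its probe sets, as Rab2b did. 1419244_a_at read 11.13, 11.15, 11.47 and 11.40 in dnBrg1 lenses, against 9.54, 8.07, 10.10 and 9.33 in wild-type lenses, a rise of 2.03 ± 0.36 (4.08-fold higher, adjusted p = 0.00181), and wild-type replicate 2 was the lowest array by more than 1 log2 unit. 1441992_at rose by 1.24 ± 0.25 (adjusted p = 0.00394), 1419243_at fell by -0.68 ± 0.16 (adjusted p = 0.00766), and the 3 others, including the brightest, changed by -0.09 to 0.32 without a call. With the covariate 1419244_a_at changed by -0.26 and 1441992_at by 0.41, neither called. Rab7, the Rab of late endosomes, and the recycling Rabs Rab11a and Rab11b were not called, with changes of 0.09 and -0.04 for Rab7, 0.04 and -0.22 for Rab11a and 0.01 for Rab11b. Rab11a 1449256_a_at passed without wild type 3 (adjusted p = 0.0449). Rab4b, Rab7b, Rab12, Rab15, Rab17, Rab20 and Rab25 had no called probe set, with changes between -0.19 (Rab20) and 0.88 ± 0.63 (Rab25, whose samples scattered widely).

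Among 17 Rab genes of secretion, the cell surface and the cilium, 2 were higher and 5 lower, against 17.5% and 23.3% of all genes. Rab13, a Rab of tight junctions and epithelial surfaces, read 10.24, 10.48, 11.08 and 10.57 in dnBrg1 lenses, against 8.74, 8.03, 9.52 and 8.61 in wild-type lenses. It rose by 1.87 ± 0.30 (3.65-fold higher, adjusted p = 0.000938) with no overlap, and the covariate left 0.16. Rab38, a Rab of lysosome-related organelles, read 9.55, 9.56, 9.87 and 9.53 in dnBrg1 lenses, against 8.91, 8.85, 8.90 and 8.73 in wild-type lenses, a rise of 0.78 ± 0.11 (adjusted p = 0.000478). The wild-type samples lay close together, below every dnBrg1 sample. Rab23 and Rab28, both tied to cilia, rose on 1 probe set each, by 1.86 ± 0.36 and 1.09 ± 0.23 (adjusted p = 0.00283 and 0.00484), and changed by -0.01 and 0.15 on their brightest probe sets. With the covariate Rab38 changed by 0.66 (adjusted p = 0.157), and Rab23 and Rab28 by -0.37 and -0.34, none of them called. Rab10 fell on its brightest probe set by -0.38 ± 0.11 (adjusted p = 0.0196, and 0.0515 to 0.0571 without dnBrg1 2, dnBrg1 4 or wild type 1). Rab8a, Rab8b, Rab27a, Rab27b, Rab32 and Rab37 had no called probe set, with changes from -0.18 (Rab8b) to 0.54 (Rab8a). Without wild type 3, Rab8a and Rab32 passed (adjusted p = 0.00333 and 0.00951).

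The Rab3 family, which serves regulated exocytosis in neurons and secretory cells, had 4 of its 9 probe sets lower and 1 higher. Over all probe sets 21% were lower and 19.8% higher. Rab3a read 8.73, 8.19, 8.84 and 8.61 in dnBrg1 lenses, against 9.05, 9.15, 9.52 and 9.61 in wild-type lenses, a fall of -0.74 ± 0.18 (adjusted p = 0.00894) without overlap. Rab3c fell on 1449494_at (-0.86 ± 0.14, adjusted p = 0.000924) and on 1432415_at (-0.96 ± 0.31, adjusted p = 0.0319, and 0.0501 to 0.0855 without dnBrg1 2, dnBrg1 3 or wild type 4). Both are dim. Rab3d fell on its brightest probe set, 1449259_at, with 7.14, 6.34, 6.30 and 6.27 in dnBrg1 lenses, against 7.48, 7.86, 7.25 and 7.66 in wild-type lenses, a change of -1.05 ± 0.21 (adjusted p = 0.00367) in which dnBrg1 replicate 1 lay apart from the other 3. On 1418891_a_at it was called higher (0.41 ± 0.14, adjusted p = 0.0466), but the groups overlapped. That probe set's adjusted p was 0.0617 to 0.117 without dnBrg1 1, dnBrg1 2, dnBrg1 3, wild type 1, wild type 3 or wild type 4. Rab3b changed by -0.08 ± 0.18 (adjusted p = 0.752). With the covariate Rab3a, Rab3c 1449494_at and Rab3d 1449259_at changed by -1.02, -1.03 and -0.31, none of them called.

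Snap25, the SNARE of synaptic vesicle fusion, and Snap23, its form in other cells, moved in opposite directions. Snap25 read 10.31, 9.84, 9.17 and 9.81 in dnBrg1 lenses, against 10.22, 11.37, 11.06 and 11.67 in wild-type lenses. The groups overlapped, since wild-type replicate 1 lay below dnBrg1 replicate 1, and the fall was -1.30 ± 0.32 (adjusted p = 0.0106). Snap23 1420897_at read 10.23, 10.06, 10.36 and 10.23 in dnBrg1 lenses, against 9.22, 8.77, 9.86 and 8.77 in wild-type lenses, a rise of 1.07 ± 0.23 (adjusted p = 0.0048), and 1420896_at rose by 1.70 ± 0.31 (adjusted p = 0.00193). The groups did not overlap in either, with wild-type replicate 3 nearest to dnBrg1. 1420898_at changed by -0.48 ± 0.18 (adjusted p = 0.0554, and 0.0228 without wild type 3). With the control covariate the 2 Snap23 increases became -0.25 and -0.057, and the Snap25 change -0.52, none of them called. Snap29, a SNARE of autophagosome fusion, was not called on any of 3 probe sets, with changes of -0.16, 0.67 and -0.04. Sec22a fell by -0.55 ± 0.10 (adjusted p = 0.00207).

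Markers of other cell types also differed between the groups. Of 15 markers of retina and other neurons, all measured, 10 were lower and 1, Tubb3, was higher, with a median change of -0.98. Their summed linear intensity was 15969 to 21692 in dnBrg1 samples, against 21305 to 30661 in wild-type samples. Array intensities have no true zero, so no marker could be scored as absent. Of 5 measured retinal progenitor markers 4 were lower, with sums of 7639 to 8496 in dnBrg1 samples, against 11200 to 14129 in wild-type samples. Of 9 macrophage markers 3 were higher (Cx3cr1 0.71, Fcgr3 0.60 and Lyz2 0.90) and 2 lower (C1qb -2.15 and Csf1r -2.13). Their median change was 0.11. Their sums were 3141 to 5806 in dnBrg1 samples, against 9064 to 10665 in wild-type samples, which did not overlap. C1qb and Csf1r were the brightest of the 9 in wild-type samples, at means of 12.03 and 11.86, and weigh most in these sums. The 8 skeletal muscle markers had a median change of 1.37 with 1 called higher, and sums of 957 to 5631 in dnBrg1 samples, against 756 to 1225 in wild-type samples. The 7 mesenchyme markers had a median change of 1.34 with none called, and sums of 888 to 9919 in dnBrg1 samples, against 1694 to 4828 in wild-type samples. Of 8 vascular endothelium markers 4 were higher and 2 lower, of 6 lens epithelium markers 2 and 2, and of 5 measured pigment cell markers 1 was lower. The part of these cells in the results, those of Rab3, Rab6b, Rab33a and Snap25 among them, was not tested.

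The Arf genes gave calls on some of their probe sets and not on others. Of the 6 genes all except Arf5 had at least 1 called probe set, and Arf4 and Arf3 had 2 each. On the brightest probe set 1 of 6 genes, Arf4, was higher and none lower, against 17.5% and 23.3% of all genes. Arf4, of the Golgi, rose on 1423053_at (1.25 ± 0.12, adjusted p = 7.69e-05) with 11.02, 10.94, 10.83 and 10.86 in dnBrg1 lenses, against 9.78, 9.51, 9.91 and 9.46 in wild-type lenses, and on 1423052_at by 0.38 ± 0.099 (adjusted p = 0.0138). No wild-type sample reached the dnBrg1 range on either, and with the covariate 1423053_at changed by 0.75 (adjusted p = 0.0916). The probe sets 1434074_x_at and 1439367_x_at, which may cross-hybridize, changed by -0.14 and -0.25. Arf6, which works at the plasma membrane and in endocytosis, fell strongly on 1418823_at, with 8.20, 8.06, 7.71 and 7.79 in dnBrg1 lenses, against 9.88, 9.69, 10.06 and 10.03 in wild-type lenses. This was the largest Arf change, -1.97 ± 0.14 (3.93-fold lower, adjusted p = 1.87e-05), and it was -2.30 with the control covariate (adjusted p = 0.0135). The 3 other Arf6 probe sets, including the brightest, changed by -0.08, -0.09 and 0.11, none of them called.

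Arf1, the main Arf of COPI budding, rose on 1426391_at (0.76 ± 0.13, adjusted p = 0.00143). With the covariate this was 1.10 (adjusted p = 0.0624). It changed by 0.10 ± 0.092 on the brightest, 1426390_a_at (adjusted p = 0.426), and by 0.64 ± 0.26 on 1420920_a_at (adjusted p = 0.0722, and 0.0039 without wild type 3). The last of these was called lower with the covariate (-0.97, adjusted p = 0.0432). Arf2 rose on 1416459_at (0.56 ± 0.16, adjusted p = 0.0193, and 0.0542 without dnBrg1 1), and its 3 other probe sets changed by -0.27, 0.36 and 0.56. These 3 passed without wild type 3 (adjusted p = 0.0483, 0.0435 and 0.00707). Arf3 fell on 1434787_at by -0.53 ± 0.12 (adjusted p = 0.00719) and on the dim 1456007_at by -0.41 ± 0.15 (adjusted p = 0.048, and 0.0823 to 0.121 without dnBrg1 1, dnBrg1 3, dnBrg1 4, wild type 1, wild type 2 or wild type 4). Its 3 others changed by -0.11 to 0.19 without a call. Arf5 changed by -0.01 ± 0.15.

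Endosomal sorting complexes gave isolated calls. In retromer, which returns cargo from endosomes, Vps35 1415784_at read 8.55, 8.23, 8.09 and 8.47 in dnBrg1 lenses, against 7.07, 6.52, 6.80 and 5.64 in wild-type lenses, a rise of 1.83 ± 0.28 (3.56-fold higher, adjusted p = 0.000691), but the brighter 1415783_at changed by 0.04 ± 0.100 (adjusted p = 0.767). With the covariate the Vps35 rise was 1.16 (adjusted p = 0.329). Vps29 1417659_at read 11.76, 11.60, 11.73 and 11.60 in dnBrg1 lenses, against 10.60, 10.48, 10.39 and 10.71 in wild-type lenses, a rise of 1.13 ± 0.11 (adjusted p = 5.89e-05) that was 1.26 with the covariate (adjusted p = 0.0272). Its 3 other probe sets changed by -0.04 to 0.25 without a call. Vps35l, of the related retriever complex, rose on 1426694_at (0.89 ± 0.11, adjusted p = 0.000255) and was still called with the covariate (1.36, adjusted p = 0.0133). On the brighter 1426695_at it changed by 0.37 ± 0.14 (adjusted p = 0.0611, and 0.0195 without wild type 3). Vps26b fell on 1428247_at (-0.57 ± 0.18, adjusted p = 0.0308), but the groups overlapped and its adjusted p was 0.0526 to 0.0811 without dnBrg1 1, dnBrg1 2, dnBrg1 4, wild type 2 or wild type 4. Vps26a and Vps26c changed by 0.33 and -0.25 without a call. Among the fits with 1 sample left out, both passed only without wild type 3 (adjusted p = 0.00759 and 0.0127). Over 20 alternatives Vps26a stayed uncalled in 15 and Vps26c in 19.

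In the HOPS tether of late endosomes, Vps41 1437901_a_at read 8.28, 8.61, 7.94 and 8.30 in dnBrg1 lenses, against 6.78, 6.36, 7.30 and 6.16 in wild-type lenses, a rise of 1.63 ± 0.24 (adjusted p = 0.000674), while its brightest probe set, 1433666_s_at, changed by -0.48 ± 0.19 (adjusted p = 0.0634, and 0.00415 without wild type 3). With the covariate 1437901_a_at changed by 0.48 (adjusted p = 0.56). Vps16 rose by 0.64 ± 0.12 (adjusted p = 0.0028). Vps39 fell on 1451720_at by -0.32 ± 0.10 (adjusted p = 0.0316, and 0.0514 to 0.0888 without dnBrg1 1, dnBrg1 2, dnBrg1 4, wild type 1, wild type 2 or wild type 4), and Vps11 on 1428110_x_at by -0.71 ± 0.23 (adjusted p = 0.0347, and 0.0626 to 0.0919 without dnBrg1 1, dnBrg1 2, dnBrg1 3, dnBrg1 4, wild type 1, wild type 2 or wild type 4). Vps11 1428109_at changed by -0.63 (adjusted p = 0.063, and 0.00178 without wild type 3), and 1452489_at was not called. Vps18 and Vps33b were not called.

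In GARP and EARP, tethers for carriers from endosomes, Vps50 read 9.57, 9.53, 9.10 and 9.27 in dnBrg1 lenses, against 7.53, 7.80, 8.96 and 8.26 in wild-type lenses, a rise of 1.23 ± 0.28 (adjusted p = 0.00656). Vps52 read 8.18, 8.28, 8.25 and 8.27 in dnBrg1 lenses, against 9.11, 10.12, 8.43 and 9.70 in wild-type lenses, a fall of -1.09 ± 0.31 (adjusted p = 0.018, and 0.0517 without wild type 4) that became 0.89 with the covariate. With the covariate the Vps50 change was 0.19 (adjusted p = 0.882). In both, wild-type replicate 3 was close to the dnBrg1 samples without reaching them. Vps53 fell on 1455644_at by -0.99 ± 0.29 (adjusted p = 0.0207, and 0.0505 to 0.0587 without dnBrg1 2 or wild type 2). Vps53 1436327_a_at changed the other way, by 0.45 (adjusted p = 0.0617, and 0.00355 without wild type 4). Vps53 1416989_at changed by -0.29 (adjusted p = 0.0903, and 0.034 without wild type 2). Vps54 was not called. In ESCRT, which buds vesicles into endosomes, Vps4a, the ATPase that takes the complex apart, fell with 9.55, 9.30, 9.49 and 9.43 in dnBrg1 lenses, against 10.30, 10.71, 10.34 and 10.42 in wild-type lenses. The change was -0.999 ± 0.12 (2-fold lower, adjusted p = 0.000198), and its paralog Vps4b changed by -0.21 ± 0.11 (adjusted p = 0.155). With the covariate Vps4a changed by -0.57 (adjusted p = 0.179). Vps28 rose by 0.43 ± 0.13 (adjusted p = 0.0207, and 0.0572 without dnBrg1 3) and Vps37c fell on 1437615_s_at by -0.41 ± 0.12 (adjusted p = 0.0176). Vps25, Vps36, Vps37a and Vps37b had no called probe set, though Vps36 1424417_at passed without wild type 4 (adjusted p = 0.0436).

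Of the other Vps genes, Vps45, which binds syntaxins at the Golgi and endosomes, rose by 0.62 ± 0.11 (adjusted p = 0.00187), and Vps13c, a lipid carrier between membranes, fell by -1.30 ± 0.20 on a dim probe set (adjusted p = 0.000738). Vps72 fell by -0.59 ± 0.10 (adjusted p = 0.0015). Among the genes named for a Rab, Rab11fip5, a partner of Rab11, rose by 0.98 ± 0.20 on a dim probe set and Rab5if by 0.54 ± 0.11 (adjusted p = 0.00396 and 0.00417). Vps9d1 fell on 1426828_at by -0.98 ± 0.12 (adjusted p = 0.000221). Rab26os fell by -1.44 ± 0.34 (adjusted p = 0.00764). With the covariate Vps13c, Rab11fip5, Vps9d1 and Rab26os changed by -1.05, 1.33, -0.51 and -1.67, none of them called. The Rab3 regulators Rab3gap2, Rab3il1 and Rab3ip had no called probe set. Without wild type 3, Rab3gap2 passed at -0.48, and Rab3il1 at -0.64 on 1419993_at and 0.30 on 1425133_s_at (adjusted p = 0.0221, 0.00377 and 0.0425). Rab3il1 1456442_at passed without wild type 1 (adjusted p = 0.0476).

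Probe sets of the same gene did not always give the same call. Of 54 member genes with several probe sets, 9 had 2 or more calls in 1 direction only (Arf3, Arf4, Rab18, Rab24, Rab31, Rab3c, Rab6a, Snap23 and Use1), 25 had exactly 1 call and 15 had none. Another 5 (Rab14, Rab22a, Rab2a, Rab2b and Rab3d) had calls in both directions, 9.26% of the 54. Over all genes with several probe sets, 686 of 4956 (13.8%) had calls in both directions, a larger share than in the members. The counts of 9, 25 and 15 were not compared with all genes, so they describe no trait particular to the members. Which transcript each probe set reads was not tested.

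The control covariate removed most calls. With it, 5 member probe sets were higher and 6 lower (5.42%), against 6.37% of all probe sets. Of the 94 called members 8 kept their call, 70 lost it with the sign kept, and 16 changed sign, none of these being called in the new direction. The median SE of the members was 0.275 with the covariate and 0.139 without it. Of the 70, 31 kept a change at least as large as the original divided by 1.5. The 8 that kept their call were Rab40c 1424331_at, Arf6 1418823_at, Sec23a, Rab2a 1418621_at and 1418623_at, Rab21 1437742_at, Vps29 1417659_at and Vps35l 1426694_at. Arf1 1420920_a_at, Copa and Rab8b 1426800_at were called only with it.

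**Figure D4:**
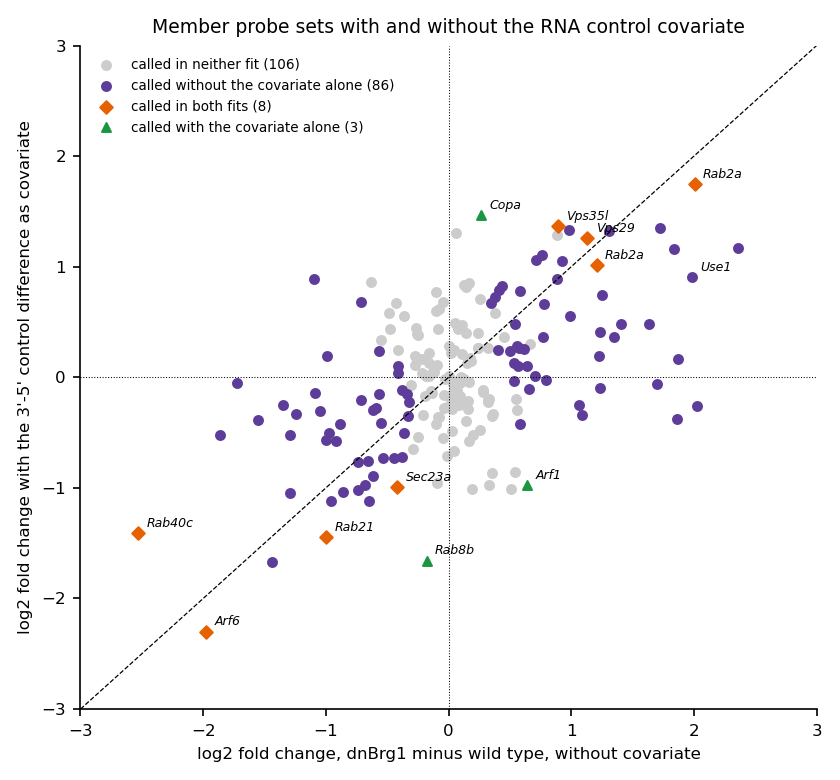
Log2 change of the 203 member probe sets without (x axis) and with (y axis) the mean 3' minus 5' control difference as a covariate, with the line of equal values dashed. The 8 probe sets called in both fits (diamonds) include Rab40c, Arf6 and 2 probe sets of Rab2a, and the 16 that changed sign lie at the upper left and lower right.

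Other trafficking genes came from lists of 330 genes, of which 258 were measured. Of these, 63 were higher and 77 lower (24.4% and 29.8%), with a median change of -0.08. The shares were 21.8% and 28.2% in the members and 17.5% and 23.3% in all genes. The shares in all genes are the background for each list count below. Among 31 SM proteins and vesicle tethers 13 were higher and 6 lower. Gorasp2, a Golgi stacking protein, rose by 1.19 ± 0.089 (adjusted p = 2.28e-05) and Trappc10, of the TRAPP tether, by 0.94 ± 0.17 (adjusted p = 0.00199), while the exocyst genes Exoc8 and Exoc4 fell by -1.14 ± 0.13 and -0.84 ± 0.12 (adjusted p = 0.000138 and 0.0005). Of 41 Rab regulators 5 were higher and 12 lower. Rabggtb, a subunit of the enzyme that attaches the lipid anchor of Rabs, rose by 1.53 ± 0.17 (adjusted p = 0.000139), and Chm, which presents Rabs to that enzyme, rose by 1.21 ± 0.24 (adjusted p = 0.00306) but changed by -0.11 with the covariate. Tbc1d24 fell by -2.52 ± 0.27 (adjusted p = 0.000117) and Rin1, an activator of Rab5, by -1.22 ± 0.20 (adjusted p = 0.00119). With the covariate Gorasp2 and Exoc8 stayed called, at 1.08 and -1.44 (adjusted p = 0.0215 and 0.0292). Trappc10 changed by 0.013 with it (adjusted p = 0.981), Exoc4 by -0.42, Rabggtb by 0.58, Tbc1d24 by -0.88 and Rin1 by -0.64, none of them called.

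The Arf regulators with the largest falls were Arfgap2 and Arfgap1, which switch off Arf1 at the Golgi. Arfgap2 read 10.28, 10.12, 10.34 and 10.27 in dnBrg1 lenses, against 12.06, 12.25, 11.78 and 12.32 in wild-type lenses, a fall of -1.85 ± 0.13 (adjusted p = 1.87e-05), and Arfgap1 fell by -2.17 ± 0.21 (adjusted p = 6.81e-05), against rises of Arfrp1 (1.04) and the Arf activator Cyth2 (0.94, adjusted p = 0.000926 and 0.000289). In all, 6 of 26 Arf regulators and Arf-like genes were higher and 7 lower. Of 29 other COPI and COPII genes 7 were higher and 6 lower, with the cargo receptor Lman2 falling by -1.52 ± 0.20 (adjusted p = 0.000302) and Preb, the activator of Sar1, by -0.77 ± 0.10 (adjusted p = 0.000316). Of 36 clathrin, adaptor and dynamin genes 7 were higher and 12 lower. Within the AP-2 adaptor, Ap2s1 rose by 1.76 ± 0.23 and Ap2a2 fell by -1.51 ± 0.14 (adjusted p = 0.000353 and 6.46e-05). Epn2 rose by 1.21 ± 0.19 and the AP-1 subunit Ap1m1 fell by -1.42 ± 0.17 (adjusted p = 0.000913 and 0.000191). With the covariate Arfgap2 stayed called, at -1.28 (adjusted p = 0.0251). The others were not called. Arfgap1, Ap2a2 and Preb changed by -0.91, -0.72 and -0.57, Cyth2, Lman2 and Ap1m1 by 0.54, -0.46 and -0.47, and Ap2s1, Epn2 and Arfrp1 by 0.33, 0.28 and 0.17.

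Of 42 other endosomal sorting genes 13 were higher and 9 lower. Snx14 rose by 1.43 ± 0.15, the ESCRT gene Snf8 rose by 1.41 ± 0.15, Vipas39, the partner of Vps33b, fell by -1.86 ± 0.23, and Fig4 fell by -0.82 ± 0.18 (adjusted p = 0.000106, 9.60e-05, 0.000258 and 0.00546). Among 31 SNARE and SNARE recycling genes 8 were higher and 12 lower. Vamp8 rose by 1.18 ± 0.19 (adjusted p = 0.00104), while Stx1a, the partner of Snap25 at synapses, fell by -2.45 ± 0.19 and Napb by -1.51 ± 0.30 (adjusted p = 2.93e-05 and 0.00301). With the covariate Stx1a stayed called, at -1.42 (adjusted p = 0.0339), while Snf8, Snx14, Vamp8, Vipas39, Fig4 and Napb changed by 1.38, 0.73, 0.66, -0.50, -0.10 and -0.021, none of them called.

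Synaptic vesicle and neurosecretory genes leaned furthest to one side, with 13 of 22 lower and 4 higher and a median change of -0.79. Over all genes 23.3% were lower and 17.5% higher. Cplx2, a complexin that clamps SNAREs at synapses, read 8.08, 7.95, 7.71 and 8.13 in dnBrg1 lenses, against 10.18, 10.11, 9.94 and 10.28 in wild-type lenses, a fall of -2.16 ± 0.13 (adjusted p = 9.65e-06), and Chga, of secretory granules, fell by -2.47 ± 0.26 (adjusted p = 0.000111). Sv2a rose by 0.78 ± 0.17 (adjusted p = 0.00564) and Syn2 by 1.15 ± 0.38 (adjusted p = 0.0378, and 0.0714 to 0.0961 without dnBrg1 2, dnBrg1 4, wild type 2 or wild type 4). Syt1 and Syp are in both this list and the neuron markers, whose summed intensities, given above, overlapped narrowly between dnBrg1 and wild-type samples. With the covariate Cplx2 stayed called, at -1.93 (adjusted p = 0.0156), and Chga, Sv2a and Syn2 changed by -1.03, 0.20 and 0.42, none of them called.

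**Figure D5:**
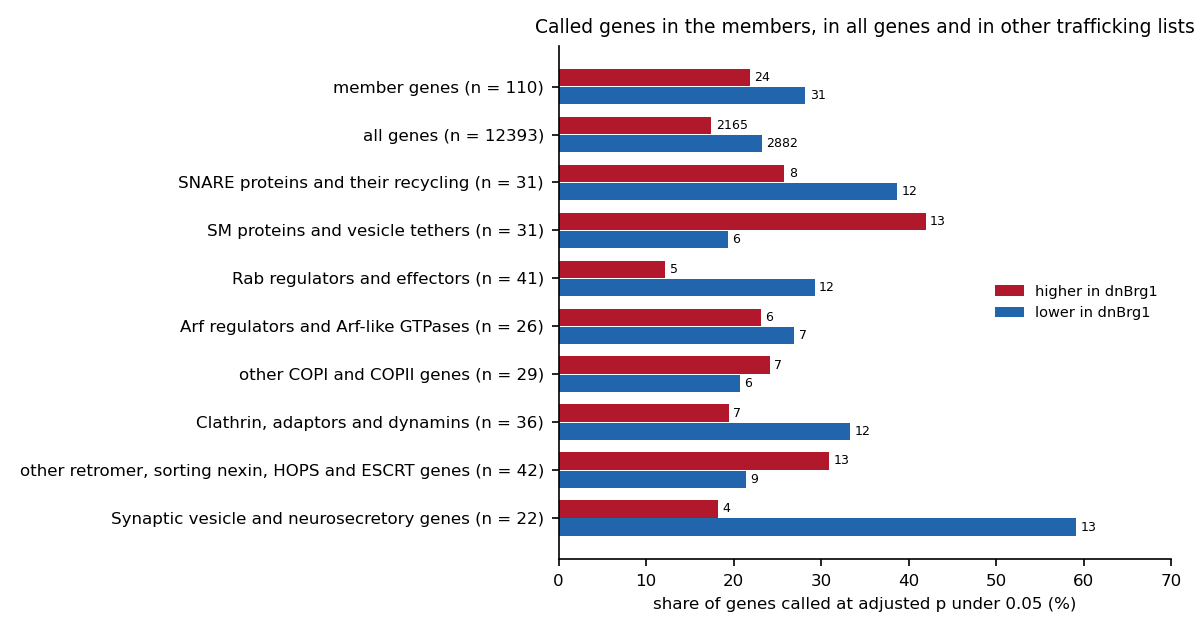
Share of genes called higher (red) and lower (blue) in dnBrg1 lenses (x axis, percent), with the number of genes at each bar, for the 110 members, all 12393 genes and 8 lists of other trafficking genes (rows). The members lie close to all genes, and the synaptic and neurosecretory list has the largest share of lower genes, 13 of 22.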

How the data were processed

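Whole-lens RNA of 4 dnBrg1 and 4 wild-type E15.5 samples was profiled on Affymetrix mouse expression arrays from amplified total RNA. The authors processed the scans with RMA (version not given in the sources used here), giving the deposited linear intensities, and log2 was taken here. RMA equalizes the arrays' distributions and would remove any shift common to most transcripts. Median intensities were 207 to 209 in dnBrg1 and 197 to 209 in wild-type samples. Samples were grouped by the genotype label. Polysome-bound RNA is named in the free-text descriptions of the wild-type samples and of dnBrg1 replicates 1 and 2, but the molecule is given as total RNA throughout, and this was treated as an alternative.

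Each of 22626 probe sets was fitted with limma 3.58.1 in R 4.3.3 (lmFit and eBayes), without a filter or covariates, and p-values were Benjamini-Hochberg adjusted over all of them. They measure the spread between samples. The fit was also run on simulated arrays with independent noise. These held no 3' minus 5' difference between groups, so they do not bear on the control covariate. Genes come from the platform annotation, and the brightest probe set of a gene has the highest mean log2 value. The members and lists were chosen with earlier results of these data known, Rab40c and Use1 among them. The rule for naming took Rab40c, Use1, the Snap and Arf genes, the 10 largest bright changes in each direction, up to 2 genes per role group, genes and paralogs with opposite calls, and up to 2 genes per direction of each other list. Further called members, and Stx18, Zw10, Scfd1, Arcn1, Sec31a and Sar1a, were added with their values in view, to complete complexes. Alternatives covered scaling, 16 added before log2, bright probe sets alone, an average over each gene's probe sets, array weights and another variance model. The methods' t-test, each sample left out, the described RNA fraction and a replicate block were also run. The last alternative was the 3' minus 5' control difference as a covariate.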

Additional observations from a re-analysis of the deposited data

Results flagged for a closer look

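Among 302 groups of 4 samples behind the called members and the other named probe sets, 10 held a sample whose gap to the nearest of the others, divided by the group's range, passed Dixon's 95% critical value. Chance alone flags about 1 in 20 groups, or 15.1 here. All values are log2 intensities. In dnBrg1 samples, Rab3d 1449259_at stood at 7.14 in replicate 1 (others 6.27 to 6.34) and Rab38 at 9.87 in replicate 3 (others 9.53 to 9.56). Rab22a 1424504_at stood at 6.67 in dnBrg1 replicate 2 (others 6.25 to 6.28), Copz2 at 9.87 in replicate 2 (others 10.04 to 10.06) and Copz1 at 10.51 in replicate 4 (others 10.69 to 10.71). In wild-type samples, Snap29 1423355_at stood at 5.80 in replicate 4 (others 7.20 to 7.33), Arf6 1434312_at at 11.67 in replicate 4 (others 11.38 to 11.41) and Rab2a 1436477_x_at at 3.19 in replicate 4 (others 3.46 to 3.52). Arf4 1439367_x_at stood at 9.63 in wild-type replicate 2 (others 9.88 to 9.91) and Epn2 at 8.58 in replicate 3 (others 7.72 to 7.75).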

How the results depend on the processing

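With the 3' minus 5' control difference as a covariate the member probe sets called fell to 5 higher and 6 lower, the member genes to 1 and 3, and the other trafficking genes to 13 and 10. Changes that turned with it, none of them called except Arf1, were Snap23 -0.057 (1420896_at) and -0.25 (1420897_at), Arf1 -0.97 (1420920_a_at), Arf3 0.042 (1456007_at), Vps52 0.89, Rab14 -0.26 (1419244_a_at), Rab5b -0.097, Vps26b 0.24 (1428247_at), Chm -0.11, Cope -0.11, Rab18 -0.42 (1420899_at) and -0.030 (1420900_a_at), Rab24 -0.023 (1421873_s_at), Rab23 -0.37 (1422399_a_at), Vps11 0.68 (1428110_x_at), Vps37c 0.10 (1437615_s_at), Rab28 -0.34 (1453406_a_at), Vps53 0.19 (1455644_at) and Zw10 0.59. The covariate nearly follows the genotype, and the cause was not tested. Member probe sets lower were 28 with the described RNA fraction as a covariate, 25 with dnBrg1 replicates 1 and 2 alone and 29 with replicates 3 and 4 alone. With dnBrg1 replicates 1 and 2 alone, 19 member genes and 41 other trafficking genes were lower. These alternatives rest on fewer dnBrg1 samples. With each sample left out, member probe sets higher ranged from 45 to 58 and lower from 35 to 52, member genes from 23 to 28 and from 26 to 38, and other trafficking genes from 55 to 70 and from 65 to 88. The remaining alternatives kept these counts within 1.5 times. Averaging the probe sets within each gene, in place of taking the brightest, turned the balance of directions. Member genes were then 35 higher and 27 lower, against 24 and 31 with the brightest. Other trafficking genes were then 72 higher and 54 lower, against 63 and 77. The lean toward lower genes in these gene counts therefore rests on the choice of the brightest probe set. Over 241 probe sets, no alternative except the control covariate turned a called change, and a sign change between uncalled values was not counted. The replicate numbers do not pair the samples by any label, and same-numbered samples deviated from their group means with correlations of -0.187, -0.0135, -0.0538 and 0.157. With the replicate number as a block, 44 member probe sets were higher and 36 lower, and 16 of 130 called probe sets lost their call. Dim probe sets limit what can be said of Rab3c, Rab33a, Rab5b, Rab11fip5, Rab2b 1455857_a_at and Vps13c, among others.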
